A study of Mus musculus with 77 samples.

Results

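A group of 10 miRNAs known from the parenchyma and stroma of solid organs was followed through mouse cell libraries, out of 566 mouse miRNA probes in the table. They were chosen by name: the muscle miRNAs mmu-miR-1, mmu-miR-133a and mmu-miR-206, the liver miRNA mmu-miR-122, the kidney and gut miRNAs mmu-miR-192 and mmu-miR-194, and the stromal miRNAs mmu-miR-143, mmu-miR-145, mmu-miR-199a-3p and mmu-miR-214 (written without the mouse prefix from here on). The question was whether a miRNA typical of an organ is measured above background in macrophages sorted from that organ, as tissue RNA carried into a sort would be. All libraries came from C57BL/6 mice with no treatment named. Of main interest were macrophages of muscle, heart, liver, kidney, gut, lung and spleen, 1 library per organ. The labels call these samples only macrophages of the organ and give no surface marker, age or number of animals. In the same set (the immune set, 24 libraries) were adult microglia of 7 sites, 4 populations sorted on CD11b and Ly6C from spleen and bone marrow, and 4 lymphocyte populations. NK cells, B cells, CD4 T cells and regulatory T cells made up the lymphocytes, and splenic dendritic cells and Ly6G neutrophils had 1 library each. A separate set (the neural set, 12 libraries) held 2 libraries each of spleen red pulp macrophages, microglia, primary neurons from cortex, primary neurons from hippocampus, and adult oligodendrocytes and astrocytes.

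A miRNA is a short RNA that lowers the output of target mRNAs which pair with its seed, bases 2 to 8 from the 5′ end. miR-1 and miR-133a are made together from shared transcripts in heart and skeletal muscle, miR-206 is a skeletal muscle miRNA, and miR-122 is made by hepatocytes, where it is very abundant. miR-192 and miR-194 share a transcript in the epithelium of kidney and intestine, miR-143 and miR-145 share one in smooth muscle, and miR-199a and miR-214 share one in mesenchymal cells such as fibroblasts.

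The mature sequences below, from RefSeq on GRCm38.p6, matched 5 of the 10 members. Their seeds bear on target pairing, and identical or near copies of the whole sequence bear on what a probe can tell apart. Capitals mark the seed. Where the table names no arm, the arm that carries the plain name is given.
miR-206-3p: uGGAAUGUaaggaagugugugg
miR-192-5p: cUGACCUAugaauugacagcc
miR-194-5p: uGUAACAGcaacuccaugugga
miR-199a-3p: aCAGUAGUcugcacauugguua
miR-214-3p: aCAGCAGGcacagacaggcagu
All 5 seeds differ from each other. miR-206-3p lies at chr1:20679055-20679076 on the plus strand, and its hairpin is 3686 bases from that of miR-133b. miR-192-5p lies at chr19:6264857-6264877 on the plus strand, and its hairpin is 115 bases from a hairpin of miR-194 (chr19:6264658-6264679, plus strand). The same miR-194-5p sequence is also made at chr1:185313325-185313346. miR-214-3p lies at chr1:162223438-162223459, and miR-199a-3p at chr1:162217883-162217904 and at chr9:21496498-21496519 on the minus strand. The hairpin of miR-214-3p is 5444 bases from the nearer hairpin of miR-199a-3p. miR-199a-3p and miR-199b-3p have the same mature sequence, so a signal for it can come from either. miR-1 and miR-206 are near copies of each other, and the separation of such copies by the probes could not be checked in the table.

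Values are normalised counts. In the immune set each value was a count of fluorescent barcodes multiplied by 1 factor per library, so the counts could be recovered. The 7 macrophage libraries held 1741 to 7148 counts in total (median 4285), against 2555 to 75635 in the other 17 immune libraries (median 11730). A single count was worth 1.72 in kidney and 8.53 in liver macrophages. The lowest value of every immune library was 1 count, and none was listed at 0. Background was read from 33 probes for viral miRNAs, and a value was called above background if it was over the mean plus 2 SD of those probes in its own library. That limit was 7.31 in kidney, 10.9 in lung, 29.1 in muscle, 38.0 in liver, 22.0 in heart, 33.9 in gut and 11.3 in spleen macrophages. As 1 library stands for each organ, a value there has no replicate, and counts are given with exact Poisson 95% intervals, which cover counting error only. The labels do not say that the samples came from separate animals, so the p-values below measure only the spread between these samples. In the immune set that spread is between the organs, sites or cell populations of a group, with 1 library each. In the neural set it is between libraries of the same cell type and may be technical. The 4 myeloid probes listed passed the limit in 22 of 28 macrophage values. Of these, miR-223 was above the limit in 5 of the 7 macrophage libraries but had 3 counts in muscle and 4 in gut macrophages. In muscle and gut, miR-155 (386 and 837) and miR-21 (33.6 and 61.4) were above the limit. miR-146a was above it in gut (53.7) and under it in muscle (16.8). The haematopoietic miR-142-5p was above it in all 7, and miR-142-3p, the other arm of its hairpin, in 3 (kidney, lung and spleen), with 1 count in liver and gut, 2 in muscle and 4 in heart.

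In the macrophages the 10 miRNAs were near background. Of their 70 values, 13 were above the limit (18.6%), against 17.4% of all mouse miRNA values and 6.06% of viral values in the same libraries. The median member value was 2 counts and the highest 20 counts, and 24 of the 70 values stood at 1 count. By library, 3 members were above the limit in liver, heart and gut macrophages (11.0%, 18.2% and 12.4% of all mouse miRNAs), 2 in lung (19.8%), 1 in kidney (26.7%) and muscle (12.9%), and 0 in spleen (21.2%). miR-199a-3p gave 4 of the 13, miR-1 and miR-145 gave 3 each, and miR-206, miR-122 and miR-194 gave 1 each. miR-133a, miR-192, miR-143 and miR-214 were above it in none of the 7. In bulk RNA of this kind, few cells of another type and little RNA per cell cannot be told apart. At a limit of the highest viral probe, 7 of the 70 values were left, namely miR-199a-3p in lung, liver and heart, miR-145 in kidney and lung, miR-1 in heart, and miR-194 in gut macrophages. All mouse miRNA values left at that limit were 10.5%.

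**Figure D1:**
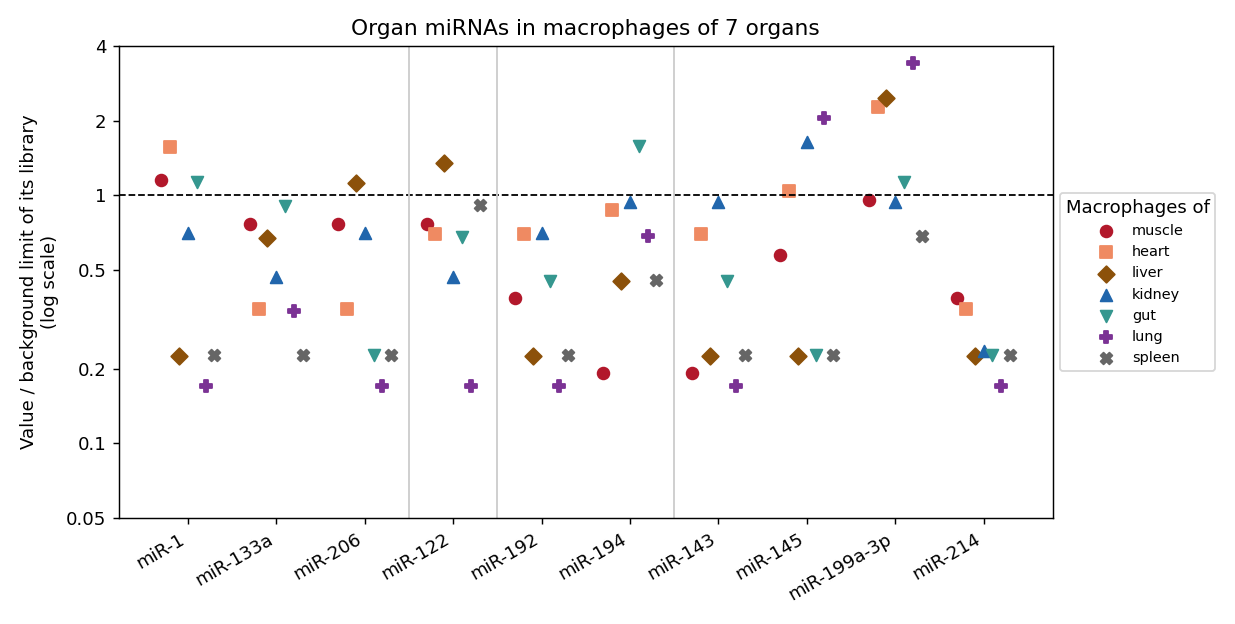
The y axis, a log scale, gives the value of each of the 10 miRNAs divided by the background limit of its library, with 1 point per macrophage library and the limit as a dashed line. miR-199a-3p in lung stands highest at 3.42 times the limit, and miR-133a, miR-192, miR-143 and miR-214 have no point above the line.

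The sum over the 10 miRNAs can be set against the sum that 10 viral probes would give. That ratio was 2.16 in heart macrophages (95% interval 1.61 to 2.84), 1.79 in kidney (1.23 to 2.51) and in lung (1.30 to 2.41), 1.65 in gut (1.12 to 2.34) and 1.60 in liver (1.09 to 2.26). It was 1.45 in muscle (0.99 to 2.04) and 0.96 in spleen macrophages (0.55 to 1.56), where the interval includes 1. The other 17 immune libraries ran from 0.86 to 2.21, with the highest ratio in B cells (1.82 to 2.67), and the 7 microglia libraries from 0.86 to 1.43. The macrophage libraries thus lay within the range of the others, though all but spleen were above the microglia range. The intervals take the viral mean as fixed, and the same ratio over all mouse miRNAs is not given here.

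On the deposited scale none of miR-1, miR-133a and miR-206 was highest in muscle macrophages, and in unscaled counts miR-133a was tied at 4 in muscle and gut. miR-1, which is made in heart and skeletal muscle, had 38.4 in gut, 34.4 in heart, 33.6 in muscle, 8.53 in liver, 5.16 in kidney, 2.57 in spleen and 1.86 in lung macrophages. The first 3 of these were above their limits, at 5, 9 and 6 counts, and the heart value alone (interval 4.12 to 17.1 counts) was above the highest viral probe of its library, 26.8. In counts miR-1 was highest in heart macrophages, whereas the deposited scaling put gut first. Among the other immune cells, miR-1 ran from 0.87 to 21.4 in microglia (median 7.49), from 1.03 to 8.07 in CD11b/Ly6C cells and from 1.22 to 3.67 in lymphocytes. It was above the limit in olfactory bulb microglia (20.3), in CD11b/Ly6C cells of bone marrow, both Ly6C low (3.71) and Ly6C high (7.63), and in neutrophils (34.1, 7 counts). Neutrophils, which the labels place among PBMCs (blood mononuclear cells), thus stood at 1.39 times their limit, between the 1.57 of heart and the 1.15 of muscle macrophages.

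miR-133a, the transcript partner of miR-1, was under the limit in all 7 macrophage libraries. Its values were 30.7 in gut, 25.6 in liver, 22.4 in muscle, 7.64 in heart, 3.73 in lung, 3.44 in kidney and 2.57 in spleen macrophages. The heart value was 2 counts and the muscle value 4, so miR-1 and miR-133a did not stand out together in either muscle tissue. At counts this low, a value under the limit does not show that miR-133a was absent. Above the limit it was found in CD4 T cells (5.37, 13 counts), in regulatory T cells (7.34, 8 counts) and in hippocampal microglia (10.5, 7 counts). miR-206, the skeletal muscle miRNA, was highest in liver macrophages at 42.7 (5 counts), with 22.4 in muscle, 7.68 in gut, 7.64 in heart, 5.16 in kidney, 2.57 in spleen and 1.86 in lung. Only the liver value passed its limit, and it lay under the highest viral probe there, 51.2. Spinal cord microglia (22.7, 6 counts) gave the other miR-206 value above background in the immune set.

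The 4 other muscle miRNA probes gave 2 of 28 macrophage values above the limit, and both were miR-208a, a heart muscle miRNA that lies in an intron of a cardiac myosin gene. It had 37 counts in spleen macrophages (95.2) and 25 in kidney macrophages (43.0), but 1 count in heart macrophages (3.82). miR-133b, miR-208b and miR-499, also muscle miRNAs, stayed under the limit in all 7. Each had its highest macrophage value in muscle, at 22.4, 28.0 and 11.2 (4, 5 and 2 counts), with the next values at 17.1 in liver, 11.5 in heart and 8.53 in liver. No muscle miRNA of the 7 measured was above the limit in both muscle and heart macrophages except miR-1.

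miR-122, the hepatocyte miRNA, was highest in liver macrophages. It had 51.2 there, 23.0 in gut, 22.4 in muscle, 15.3 in heart, 10.3 in spleen, 3.44 in kidney and 1.86 in lung macrophages. The liver value was 6 counts (interval 2.20 to 13.1) in the library with the fewest counts, 1.35 times the limit of 38.0. The highest of the 33 viral probes in that library had the same 51.2, and 30 other mouse miRNA probes were higher. On the deposited scale 31.1% of all 566 mouse miRNAs had their highest macrophage value in liver, the most of the 7 libraries, whereas in unscaled counts 3.89% did, the fewest. Outside the macrophages miR-122 passed the limit only in whole-brain microglia, at 3.50 (8 counts, 1.47 times the limit), and it ran up to 20.9 in microglia (lowest 0.87, median 6.00). CD11b/Ly6C cells held 1.03 to 5.38 and lymphocytes 0.41 to 1.84.

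Of the kidney and gut miRNAs, miR-194 was highest in gut macrophages. It had 53.7 in gut, 19.1 in heart, 17.1 in liver, 7.46 in lung, 6.88 in kidney, 5.60 in muscle and 5.14 in spleen macrophages. The gut value was 7 counts (interval 2.81 to 14.4), 1.59 times its limit and above the highest viral probe there, 38.4. Kidney, the other organ it is known from, stood at 4 counts and under the limit. miR-192, which is cut from the same transcript, was under the limit in all 7 macrophage libraries, with 15.4 in gut, 15.3 in heart, 11.2 in muscle, 8.53 in liver, 5.16 in kidney, 2.57 in spleen and 1.86 in lung. Its gut value was 2 counts, so the pair was not seen together in gut macrophages, though so few counts do not show that miR-192 was absent. On the deposited scale gut macrophages were the highest of the 7 libraries for 27.6% of all mouse miRNAs and kidney macrophages for 2.65%, against 5.65% and 15.0% in unscaled counts.

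miR-192 and miR-194 were also measured above background outside the macrophages. They passed the limit in 1 of 14 macrophage values, against 1 of 14 in microglia, 5 of 8 in CD11b/Ly6C cells and 6 of 8 in lymphocytes. All mouse miRNA values above the limit were 17.4% in macrophages, 18.5% in microglia, 24.4% in CD11b/Ly6C cells and 25.5% in lymphocytes, and the difference between groups in these shares was not tested. In B cells miR-194 had 41 counts (9.99, 3.39 times the limit) and miR-192 had 20 (4.87, 1.65 times). In Ly6C low cells of bone marrow they had 23 and 17 counts (9.48 and 7.01). CD4 T cells (7.44 and 4.13) and Ly6C low spleen cells (10.3 and 6.19) also held miR-194 and miR-192 above the limit. On the deposited scale these values lay within the range of the macrophages, whose limits were all above those of lymphocytes (2.95 to 5.21). The kidney and gut list had 2 further measured probes, and miR-204, an epithelial miRNA, passed the limit in 3 of the 7 macrophage libraries (kidney 8.60, lung 11.2 and spleen 20.6). miR-375, a miRNA of endocrine and gut epithelial cells, passed it in 0 of 7.

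**Figure D2:**
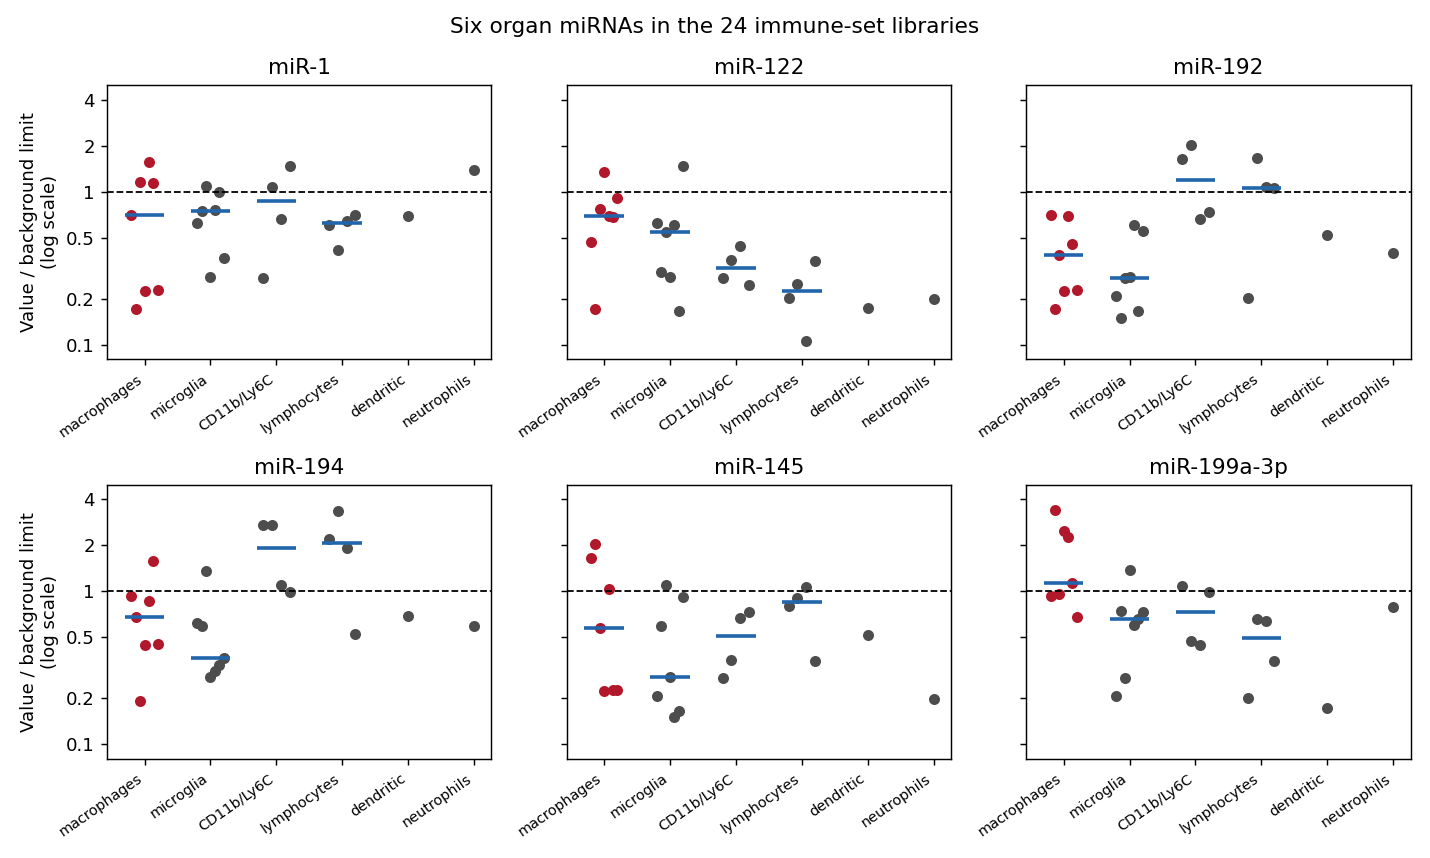
Each panel shows 1 miRNA, with its value divided by the background limit of the library on a log scale, the 7 macrophage libraries in red at the left and the other immune groups in grey. Blue bars are group medians. miR-194 reaches 1.59 times the limit in macrophages, against 2.74 in CD11b/Ly6C cells and 3.39 in lymphocytes, while miR-199a-3p reaches 3.42 in macrophages.

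Stromal miRNAs gave 7 of the 13 values above the limit, from miR-199a-3p and miR-145. miR-199a-3p, the mesenchymal miRNA, had 93.9 in liver, 49.7 in heart, 38.4 in gut, 37.3 in lung, 28.0 in muscle, 7.71 in spleen and 6.88 in kidney macrophages. Liver (11 counts, interval 5.49 to 19.7), heart (13 counts, 6.92 to 22.2) and lung (20 counts, 12.2 to 30.9) were above every viral probe of their library. In liver macrophages 12 of the other mouse miRNA probes were higher. Gut was above its limit at 5 counts, and muscle, kidney and spleen were under theirs. Microglia ran from 1.75 to 21.4 (median 6.00), with spinal cord (18.9, 5 counts) above the limit. CD11b/Ly6C cells had 1.65 to 5.38 and lymphocytes 0.91 to 2.48, with Ly6C low spleen cells (4.13, 4 counts) above the limit, and dendritic cells and neutrophils had 4.19 and 19.5.

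miR-145, a smooth muscle miRNA, had 22.9 in heart, 22.4 in lung, 16.8 in muscle, 12.0 in kidney, 8.53 in liver, 7.68 in gut and 2.57 in spleen macrophages. Lung (12 counts, interval 6.20 to 21.0) and kidney (7 counts, 2.81 to 14.4) were above every viral probe of their library, and heart (6 counts) was above the limit only. Among other cells it passed the limit in CD4 T cells (4.13, 10 counts) and in olfactory bulb microglia (20.3, 4 counts). miR-143, which shares its transcript, was under the limit in all 7 macrophage libraries, at 15.4 in gut, 15.3 in heart, 8.53 in liver, 6.88 in kidney, 5.60 in muscle, 2.57 in spleen and 1.86 in lung. In the immune set it passed the limit in 1 library, cerebellar microglia (29.9, 7 counts). miR-214, which shares a transcript with miR-199a, had 1 or 2 counts in all 7 macrophage libraries, or 1.72 to 11.2, and passed the limit in 1 immune library, regulatory T cells (5.51, 6 counts). The other arm of the same hairpin, miR-199a-5p, passed the limit in 0 of 7, with 5.59 to 23.0. So miR-199a-3p was above the limit in 4 macrophage libraries with its partner miR-214 under it, and miR-145 in 3 with its partner miR-143 under it.

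On the deposited scale the endothelial probes were highest in the 3 libraries whose miR-199a-3p lay above every viral probe. miR-126-3p, an endothelial miRNA, had 751 in lung, 572 in liver, 375 in heart, 119 in kidney, 118 in muscle, 23.0 in gut and 5.14 in spleen macrophages. On that scale lung, liver and heart thus held the most miR-126-3p. The match depends on the viral-probe criterion: gut had more miR-199a-3p (38.4) than lung (37.3), with miR-126-3p under its limit. In unscaled counts it had 403 in lung, 98 in heart, 69 in kidney and 67 in liver macrophages, so kidney stood before liver. miR-126-5p passed the limit in lung (48.5) and heart (38.2) but not in liver (34.1, 4 counts). The 2 endothelial probes passed the limit in 7 of 14 macrophage values, with summed values of 7.71 to 800, against 0 of 14 in microglia with sums of 1.31 to 20.3. The 3 erythroid probes passed it in 5 of 21 macrophage values (sums 25.6 to 76.4) and 2 of 21 in microglia (4.37 to 45.7). The 6 probes of the epithelial miR-200 family and miR-205 passed it in 19 of 42 macrophage values (sums 72.0 to 282) and 21 of 42 in microglia (27.1 to 383). No probe of these lists was at 0, since 1 count is the lowest value. The lymphocyte miR-150 passed it in 5 of 7 macrophage libraries (7.68 to 160, with lung highest) and 1 of 7 in microglia (0.87 to 20.3). The part of endothelial, erythroid, epithelial or lymphocyte RNA in the values of the 10 miRNAs was not tested.

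The organ a miRNA is known from held its highest macrophage value for 3 of the 6 miRNAs with such an organ: miR-122 (liver), miR-194 (gut) and miR-192 (gut, under the limit). miR-1 and miR-133a were highest in gut and miR-206 in liver. Scaling changed which ones matched. In unscaled counts they were miR-1 (heart), miR-122 and miR-194, and scaled to the 100 highest miRNAs miR-1 (heart) and miR-122. As values over the background limit, a choice made after the data were seen, they were miR-1 (heart), miR-122, miR-192 (kidney) and miR-194. Divided by miR-142-3p they were miR-122, miR-192 (gut) and miR-194, and after quantile normalisation miR-1 (heart), miR-122 and miR-194. miR-142-3p had 1 count in liver and in gut macrophages, under the limit, against 28 in kidney, 29 in lung and 34 in spleen. Division by it thus raises liver and gut values over those libraries, and its matches in liver and gut support nothing. miR-122 was the 1 miRNA highest in its own organ under all 6 scalings tried. These rescale the same 6 counts in liver and are not separate tests. On the deposited scale the 4 libraries with the highest value of 1 count also held most peaks: liver 31.1%, gut 27.6%, muscle 20.0% and heart 10.1% of all mouse miRNAs, against 6.18% in spleen, 2.65% in kidney and 2.47% in lung. In unscaled counts the shares were 3.89% in liver, 5.65% in gut, 14.1% in heart and 15.0% in kidney, with 25.4% tied. Scaled to the 100 highest miRNAs, liver held 68.9% and heart 5.30%. Divided by the background limit, kidney held 29.0%, heart 13.6%, gut 10.8% and liver 6.89%. Divided by miR-142-3p, gut held 36.2% and liver 32.2%, and after quantile normalisation liver held 15.7%, gut 14.1% and heart 11.0%.

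**Figure D3:**
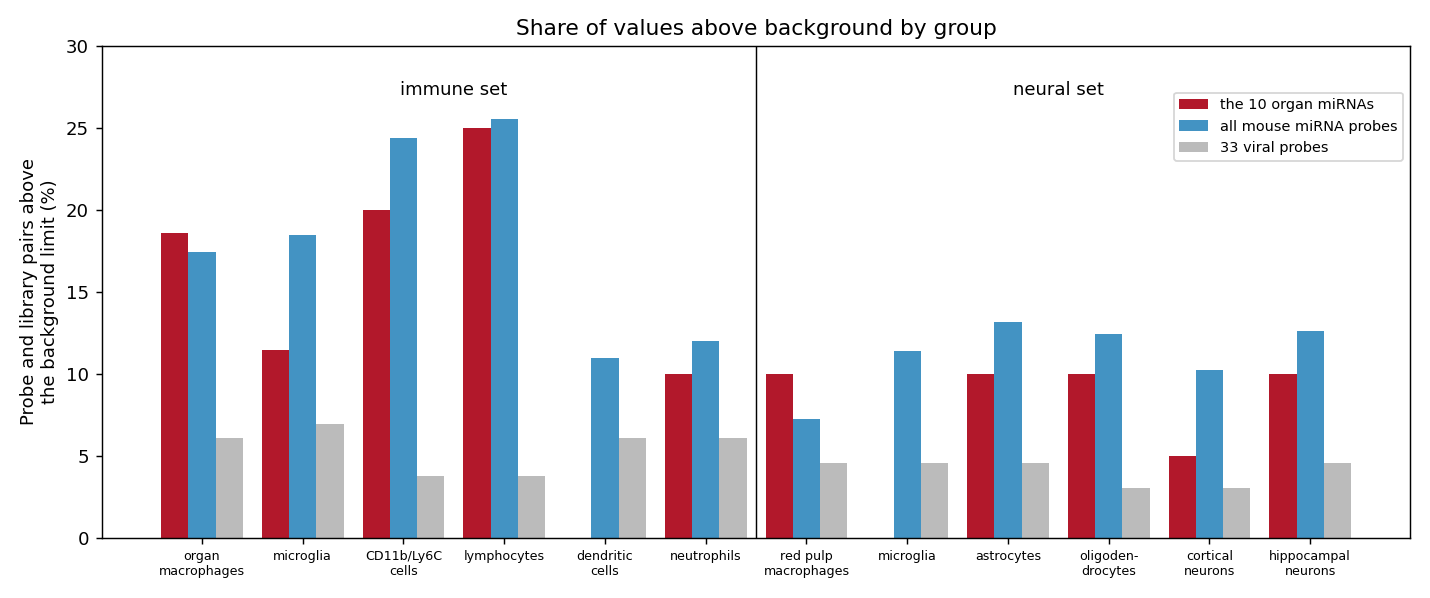
Bars give the percentage of values above the background limit in each group for the 10 organ miRNAs (red), all mouse miRNA probes (blue) and the 33 viral probes (grey). In macrophages the 10 miRNAs reach 18.6% and all mouse miRNAs 17.4%, in microglia 11.4% and 18.5%.

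Group comparisons used limma on log2(value + 10), a scale that understates changes of low miRNAs, over the 132 miRNAs above 20 in at least 4 of 22 libraries. Against microglia, 17 of the 132 passed (12.9%), 7 higher (5.3%) and 10 lower (7.58%) in macrophages. That split was 3 and 11 after quantile normalisation, 10 and 7 scaled to the 100 highest miRNAs, and 1 and 2 divided by the mean of the viral probes. Of the 10 members 3 reached the minimum, all through macrophages and microglia: 5 macrophage and 1 microglia libraries were over 20 for miR-199a-3p, 3 and 3 for miR-1, and 3 and 1 for miR-122, with 0 CD11b/Ly6C and 0 lymphocyte libraries. They were thus admitted by groups in which they are high, and their number among the calls supports nothing. The same admission holds for every immune comparison with this filter, so the adjusted p of these members there are descriptions only. miR-199a-3p averaged 37.4 ± 29.6 in macrophages and 9.08 ± 7.78 in microglia (SD, n = 7 each) and was called higher in macrophages, by 1.16 ± 0.32 SE on the log2 scale (limma adjusted p = 0.0116). The groups overlap, with 5 of 7 macrophage libraries above every microglia library, and no mouse miRNA (0.0%) had all 7 macrophage values above all microglia values. miR-122 (0.55 ± 0.30, adjusted p = 0.27) and miR-1 (0.25 ± 0.32, adjusted p = 0.57) did not pass the limma test. The viral probes, fitted without a filter, lay between -0.21 and 0.39 (median 0.21). The call of miR-199a-3p held in 30 of 33 settings and was lost with values raised to background (0.75), with values divided by the viral mean (0.92), and in a fit of the 2 groups alone (1.16), with adjusted p from 0.00198 to 0.121 over the settings.

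Against the other immune groups, many miRNAs and the viral probes were higher in macrophages as well. Against CD11b/Ly6C cells 62 of 132 passed (47.0%), 45 higher (34.1%) and 17 lower (12.9%). miR-199a-3p differed by 1.51 ± 0.38 SE (limma adjusted p = 0.00249) and miR-122 by 1.02 ± 0.36 (adjusted p = 0.0223), while miR-1 did not pass (0.66 ± 0.38, adjusted p = 0.13). No CD11b/Ly6C library was over 20 for any of these miRNAs, so the filter admitted them through other groups. All 7 macrophage values of miR-199a-3p lay above all CD11b/Ly6C values, as did those of 6.71% of all mouse miRNAs. The viral probes moved by 0.21 to 1.02 (median 0.44). With values divided by the viral mean, a setting added after the data were seen, the split of calls turned to 1 higher and 25 lower, with 6 and 20 after quantile normalisation, 63 and 10 scaled to the 100 highest miRNAs, 22 and 29 by edgeR, and 28 and 31 by DESeq2. Under that division neither member passed, at 0.83 for miR-199a-3p and 0.59 for miR-122. miR-122 was also lost after quantile normalisation (0.57), and without Ly6C low spleen cells (0.97), Ly6C low bone marrow cells (0.98) or Ly6C high bone marrow cells (0.98). Without the muscle, liver or gut macrophages, or the eye microglia, miR-122 fell under the minimum for a test.

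Against lymphocytes 91 of 132 passed (68.9%), 65 higher (49.2%) and 26 lower (19.7%). miR-199a-3p differed by 1.76 ± 0.38 SE, miR-122 by 1.16 ± 0.36 and miR-1 by 0.91 ± 0.38 (limma adjusted p = 0.000304, 0.0058 and 0.0312). Lymphocyte libraries over 20 were likewise lacking for all of these miRNAs, which the filter admitted through macrophages and microglia. All 7 macrophage values of miR-199a-3p and miR-122 lay above all lymphocyte values, which was so for 31.1% of all mouse miRNAs, while miR-1 overlapped. The viral probes moved by 0.29 to 1.08 (median 0.53). The split was 10 and 23 after quantile normalisation, 76 and 12 scaled to the 100 highest miRNAs, 47 and 39 by edgeR, and 40 and 42 by DESeq2. Divided by the viral mean, 6 miRNAs were higher and 43 lower, with miR-199a-3p at 1.20 and miR-122 at 0.79 still past the threshold and miR-1 at 0.12 not. The call of miR-122 was lost after quantile normalisation (0.64, limma adjusted p = 0.054). The call of miR-1 was also lost by DESeq2 (1.26, adjusted p = 0.068), after quantile normalisation (0.33), and without 1 of 3 lymphocyte libraries (NK, B or CD4 T cells, 0.86 to 0.92) or 1 of 3 macrophage libraries (muscle, heart or gut, 0.74 to 0.76). Against the mean of the 3 groups 83 of 132 passed (62.9%), 58 higher (43.9%) and 25 lower (18.9%), and miR-199a-3p (1.48 ± 0.28) and miR-122 (0.91 ± 0.26) were higher (limma adjusted p = 9.7e-05 and 0.0044), while miR-1 was not (0.61 ± 0.28, adjusted p = 0.055). miR-1 passed in 11 of 31 alternatives there, with adjusted p from 0.00512 to 0.967 over all of them. Divided by the viral mean, miR-1 turned to -0.026 against microglia, -0.13 against CD11b/Ly6C cells and -0.015 against this mean. The split of calls against this mean was 18 and 33 after quantile normalisation, 7 and 44 divided by the viral mean, 70 and 9 scaled to the 100 highest miRNAs, 40 and 32 by edgeR, and 40 and 36 by DESeq2. These comparisons share the 7 macrophage libraries.

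Without the filter all 10 members could be tested. Against microglia 1 of 10 was higher and 0 lower, against CD11b/Ly6C cells 3 and 0 (miR-145 in addition), and against lymphocytes 6 and 0 (miR-145, miR-133a and miR-206 in addition). The share higher over all 566 miRNAs was 0.53%, 30.6% and 65.7% in the 3 comparisons. The median log2 difference of the 10 members was 0.35 against microglia, 0.67 against CD11b/Ly6C cells and 0.69 against lymphocytes, beside 0.23, 0.52 and 0.61 over all 566 miRNAs. miR-192 (0.36, 0.14 and 0.38), miR-194 (0.34, 0.26 and 0.42) and miR-214 (0.15, 0.44 and 0.28) passed none of the 3. miR-143 was the 1 member with a negative value, -0.15 ± 0.24 SE against microglia (limma adjusted p = 0.70).

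**Figure D4:**
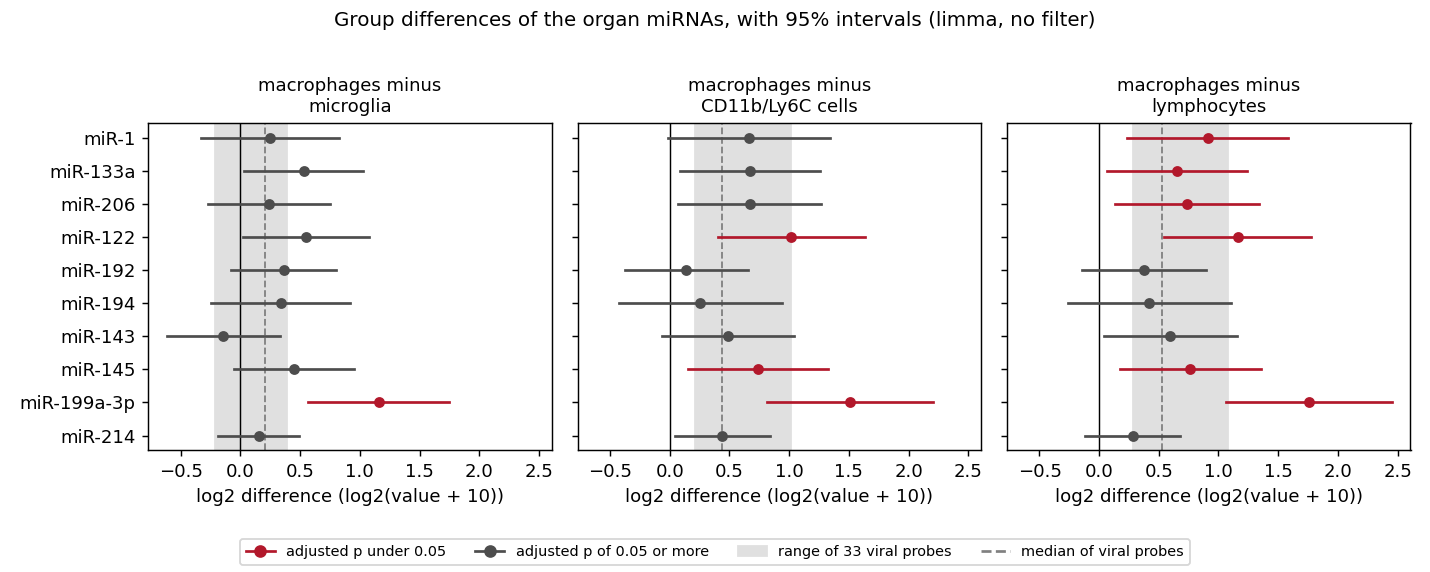
Points are log2 differences of the 10 miRNAs between macrophages and microglia, CD11b/Ly6C cells or lymphocytes (limma without a filter), with 95% intervals as lines and the range of the 33 viral probes as a grey band. Red marks an adjusted p under 0.05. miR-199a-3p lies to the right of the band in all 3 panels, at 1.16, 1.51 and 1.76.

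The depth of the macrophage libraries limits these comparisons. With the libraries under 5000 counts left out, kidney and lung remained of the 7 macrophage libraries, and 0 of the 10 members reached the minimum for a test. Over the 24 immune libraries, the log2 values of the 10 members correlated with the mean of the viral probes at r from 0.59 (miR-145) to 0.86 (miR-122), as a description over libraries that share their scaling. Within the 7 macrophage libraries miR-133a (0.96) and miR-122 (0.93) followed the viral mean most closely and miR-145 (-0.05) least. The probes most like miR-1 over the 24 libraries were miR-1893 (Pearson r = 0.87), miR-290-3p (0.86) and miR-100 (0.86), among 167 probes above background in at least 2 macrophage libraries. For miR-122 they were miR-688 (0.94), miR-669j (0.88) and miR-465a-3p (0.86), for miR-192 miR-2134 (0.77), miR-290-3p (0.75) and miR-100 (0.75), and for miR-143 miR-2139 (0.84), the joint probe for miR-297a, miR-466f and miR-669b (0.81) and miR-142-5p (0.80).

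In the neural set, scaled and tested apart, 9 of 120 member values passed the limit (7.50%), against 11.2% of all mouse miRNA values. Spleen red pulp macrophages gave 2 of 20 (7.24% of all mouse miRNA values there): miR-1 at 125 and miR-133a at 137, both in the second library (limit 113). The first library had 69.0 and 96.0 (limit 113), so neither miRNA passed in both. miR-133a also passed in both oligodendrocyte libraries (98.0 and 93.0) and in 1 of hippocampal neurons (63.0). miR-206 passed in that same hippocampal library (58.0), and miR-1 in 1 of astrocytes (73.0). Of the stromal miRNAs, miR-145 passed in 1 astrocyte library (72.0) and miR-199a-3p in 1 of cortical neurons (141), each with its partner library under the limit. miR-122, miR-192, miR-194, miR-143 and miR-214 passed in 0 of 12.

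**Figure D5:**
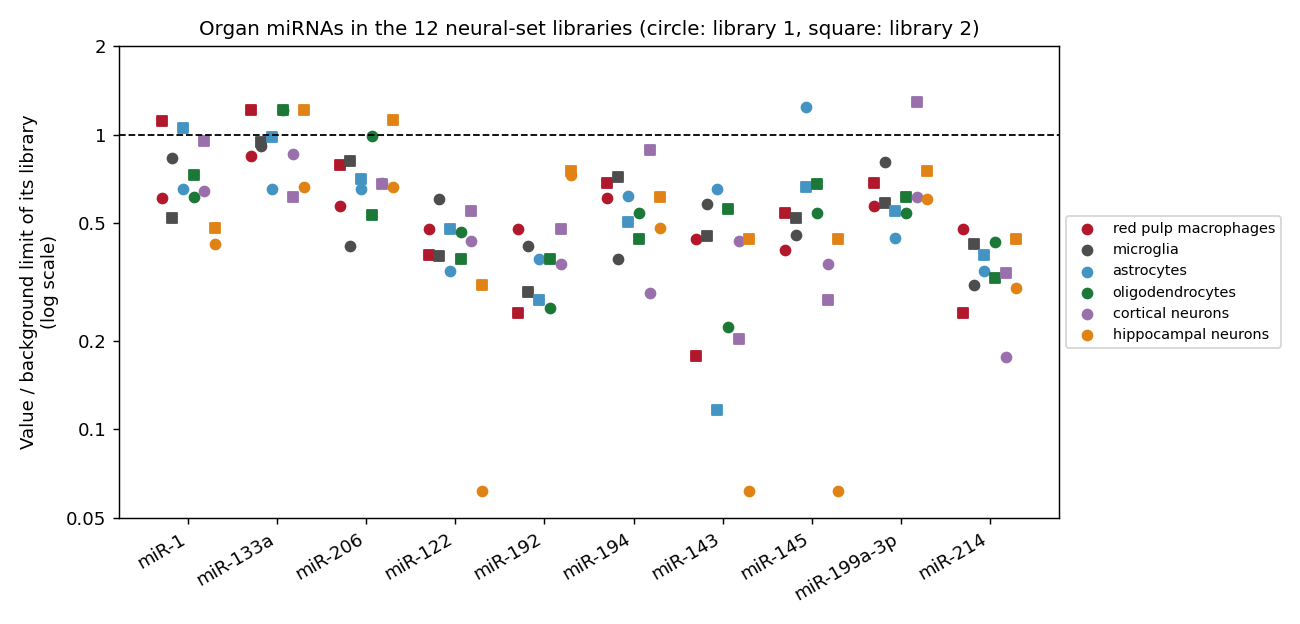
The y axis, a log scale, gives each miRNA's value divided by the background limit of its library in the 12 neural-set libraries, with circles for the first and squares for the second library of each cell type. Red pulp macrophages are the left-hand red points, and the highest point is miR-199a-3p in 1 cortical neuron library at 1.29 times the limit.

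None of the 10 members passed the limma test between neural-set groups in the fit of all 12 libraries. Red pulp macrophages against microglia gave 10 calls of 566 (1.77%), 0 higher and 10 lower, with the members between -0.19 (miR-143) and 0.80 (miR-1) and the smallest adjusted p at 0.63. Against the 4 neural cell types, averaged, there were 0 calls (0.0%, with 53 at an unadjusted p under 0.05), and the members lay between 0.03 (miR-192) and 0.57 (miR-122). In that comparison the viral probes had a median of 0.51. Adult astrocytes against the other 3 neural types gave 9 calls (1.59%), 7 higher (1.24%) and 2 lower (0.353%), with members from -0.94 (miR-199a-3p) to 0.70 (miR-145). miR-145 averaged 59.0 ± 18.4 in astrocytes, against 48.0 ± 5.66 in oligodendrocytes, 32.5 ± 3.54 in cortical neurons and 19.5 ± 4.95 in hippocampal neurons (SD, n = 2 each), and its limma adjusted p was 0.51. Without the second hippocampal neuron library, the astrocyte differences were -0.94 for miR-133a, -0.90 for miR-206, -1.23 for miR-192 and -1.24 for miR-199a-3p. The 1 hippocampal library then left had 3699 counts in total, with 1 count worth 15.7 and a limit of 259. None of the 10 members was above that limit there, so these differences rest in part on background values of 1 library.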

How the data were processed

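Total RNA was extracted with the mirVana kit and counted with the nCounter mouse miRNA assay, which tags single RNA molecules with fluorescent barcodes, per the labels' protocols and the series' design text. Deposited immune-set values are a signal, each a whole barcode count times a factor that is the same throughout its library. Between 99.8% and 100% of its values were whole counts within 0.1 of a count, so counts were recovered (1741 to 75635 per library, median 5566). For the neural set the deposited values are a score, meaning scaled counts rounded to whole numbers (3699 to 20487 counts, median 12495). The sources used here do not give what the factors rest on or how background was treated. Grouping followed the sample titles. The sets were scaled apart and tested apart.

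The analysis here used log2(value + 10), limma 3.58.1 in R 4.3.3 (lmFit, eBayes with a trend, 1 fit per set), a minimum of 20 in at least 4 of 22 immune or 2 of 12 neural-set libraries, and Benjamini-Hochberg adjustment over all miRNAs tested. A call is an adjusted p below 0.05. The fit was also run on simulated data with normally distributed noise on the log2 scale. Those data lacked the low whole counts and depth differences of these libraries, so that run does not show how the fit behaves here. Alternatives were other pseudocounts, filters, limits and scalings, edgeR 4.0.16 and DESeq2 1.42.0 on recovered counts, and each library left out in turn. Values in the text are those of all 10 members and of the listed probes of muscle, kidney and gut, stromal, endothelial, epithelial, erythroid and blood cell miRNAs, plus the 3 probes most correlated with miR-1, miR-122, miR-192 and miR-143. Passenger arms of the members and miR-215 were not analysed here. The members and lists were chosen with earlier results of these data known. The gene panel and the gene expression arrays were not used here.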

Additional observations from a re-analysis of the deposited data

Results flagged for a closer look

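Within groups of 4 or 7 libraries, 4 of 40 member and group pairs had 1 library far from the others by Dixon's criterion. That criterion flags about 1 in 20 groups of normally distributed values, whereas these values are low counts times a factor per library. The share of all mouse miRNAs flagged is not given here, so the number of flags supports nothing by itself. In organ macrophages, miR-122 stood apart in liver at 51.2 (6 counts), with the next value at 23.0, and miR-194 stood apart in gut at 53.7 (7 counts), with the next at 19.1. Both lie in an organ the miRNA is known from, in libraries where 1 count is worth 8.53 and 7.68. In CD11b/Ly6C cells, miR-133a at 10.8 (4 counts) and miR-122 at 5.38 (2 counts) stood apart in the Ly6C high spleen cells, both under that library's limit of 12.1, where 1 count is worth 2.69.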

How the results depend on the processing

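Of 13 macrophage values above the limit, 8 were left at a mean plus 3 SD (11.4% of member values, against 12.1% of all mouse miRNA values) and 7 at the highest viral probe (10.0%, against 10.5%). With a Poisson limit, added after the data were seen, 15 passed (21.4%, against 19.9%), 12 of them shared with the 13. Without the liver library 10 were left, as without the gut library. The own organ was highest for 2 to 4 of 6 miRNAs over the scalings. Calls against microglia (17) were 9 without a filter, 10 with a minimum of 100, 3 divided by the viral mean, 8 with the 2 groups alone and 30 by DESeq2. Calls against CD11b/Ly6C cells (62) were 189 without a filter, 10 with a minimum of 100, 26 with quantile normalisation or divided by the viral mean, and 13 without libraries under 5000 counts. Calls against lymphocytes (91) were 398, 25, 33, 49 and 20 under those 5 settings in the same order. Calls against the mean of the 3 groups (83) were 354 without a filter, 21 with a minimum of 100, 51 with quantile normalisation or divided by the viral mean, and 13 without libraries under 5000 counts, and the fit of 2 groups alone gives no value for it. With 1 library left out in turn, these counts ran from 8 to 23, 22 to 75, 62 to 96 and 52 to 91. Against microglia, 11 were left without the hippocampus, 10 without the cortex and 8 without the brain microglia. Against CD11b/Ly6C cells, 38 were left without Ly6C low spleen, 22 without Ly6C low marrow, 32 without Ly6C high marrow, 39 without muscle macrophages and 35 without gut macrophages. Against the mean of the 3, 52 were left without muscle macrophages. In the neural set they ran from 1 to 30 for red pulp macrophages against microglia (10), 0 to 63 against the neural mean (0) and 0 to 183 for astrocytes (9). Hippocampal neuron libraries gave the highest counts (29 and 30, 63 and 13, 18 and 183 without the first and the second). Without either library of the 2 groups compared, red pulp macrophages against microglia gave 1, and astrocytes gave 0 and 4 without their own libraries, 4 without the first cortical neuron library and 5 without 1 red pulp or 1 oligodendrocyte library. A lone library was then assumed to vary like the other groups. Against the neural mean, 4 passed with a minimum of 100 and 5 with values raised to background, and for astrocytes 5 passed with a pseudocount of 50 and 4 with values raised to background. With the replicate number as a block, the 3 neural counts were 9, 0 and 6. Deviations of same-numbered libraries correlated between -0.25 and 0.08, with 0 of 15 pairs over 0.1. In this set 11.2% of mouse miRNA values were above the limit, so counting noise could hide a pairing. A pairing by number was therefore neither shown nor excluded. Of 913 member results under alternatives, 853 kept direction and call, 19 lost a call, 16 gained one and 25 changed sign, with 0 of these 25 called before or after. Divided by the viral mean, miR-1 came to -0.026 against microglia, -0.13 against CD11b/Ly6C cells and -0.015 against the mean of the 3 groups. In red pulp macrophages against microglia, miR-122 came to -0.11 and miR-199a-3p to -0.037 after quantile normalisation, and miR-143 to 0.54 with values raised to background. Against the neural mean, quantile normalisation gave miR-206 -0.052, miR-192 -0.26, miR-143 -0.12 and miR-199a-3p -0.029, and a pseudocount of 50 gave miR-192 -0.030. In astrocytes miR-1 came to 0.25 after quantile normalisation and miR-145 to -0.43 with values raised to background. With 1 library left out, miR-143 ran from -0.69 to 0.31 in red pulp macrophages against microglia. Against the neural mean, miR-206 ran from -0.0046 to 0.40, miR-192 from -0.35 to 0.40, miR-143 from -0.19 to 0.81 and miR-214 from -0.071 to 0.68. In astrocytes miR-1 ran from -0.58 to 0.21, miR-122 from -0.44 to 0.076 and miR-143 from -0.99 to 0.42. The cause of these changes was not tested. Low counts limit all member values in macrophages.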
